A study of Mus musculus with 2 samples.

Results

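Gene desert p300 peaks were the p300-bound sites that lay in the long stretches between coding genes, outside any gene body and far from any protein-coding promoter. A peak was counted as one when its midpoint fell outside every annotated gene body, coding or non-coding, and more than 400 kb from the transcription start site (TSS) of the nearest protein-coding gene. Of the 6629 peaks in the deposited list, 545 met this rule, which is 8.22% (exact 95% interval 7.57 to 8.91). Start sites of non-coding genes could be nearer, and with distance taken from genes of any type 139 peaks met it. The closest to the limit were at 400.1, 400.4 and 401.3 kb, nearest to Klf12, 1700018B24Rik and Dcn, and the first peaks left out were at 398.1, 398.4 and 398.5 kb, nearest to Fign, Igfbp7 and Gtdc1.

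The study mapped p300 in the developing mouse neocortex by ChIP-seq, in which chromatin fragments bound by a protein are recovered with an antibody and sequenced. E14.5 Swiss Webster embryos gave the tissue, the dorsal cerebral wall, which is the outer wall of the forebrain without hem, hippocampus and choroid plexus, fixed with formaldehyde. It was precipitated with the C-20 antibody against p300, and chromatin without precipitation served as input. There was 1 p300 library and 1 input library, with no allele or drug treatment in the labels of either. The input was not analysed here, and the peak list carries positions only. Nothing below has a replicate check, all intervals cover counting error only, and since one dissection holds progenitors, migrating neurons and cortical plate neurons together, the cells in which a peak was bound cannot be told apart.

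p300 is a histone acetyltransferase that is brought to DNA by transcription factors and marks many active enhancers, the sequences that raise transcription of a gene from a distance. A gene desert is a stretch of genome with no protein-coding gene, and deserts beside developmental regulators are known to hold enhancers that act on those regulators over long distances. In the embryonic cortex, factors of the bHLH, homeodomain, Nfi, Sox and POU families direct the passage from progenitor to neuron.

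The central 200 bases of 8 gene desert peaks are printed here, on the plus strand of mm9, because they carry the short words counted in the results on motifs. They are the members with most matches to the searched motifs in these 200 bases in 7 of the deserts described in the next paragraphs, and a member very far from any coding TSS. Capitals mark those matches, which are CATCTG and CAGCTG (E-boxes, bound by bHLH factors), TAATTA (bound by many homeodomain factors), TTGGCA (one arm of the site of Nfi factors), ACAAAG (Sox) and GTTGCC (one arm of the site of Rfx factors), each on either strand. Peak 5813 lay 487 kb from Efnb2 and its stretch was chr8:8174377-8174576. Peak 4151 lay 465 kb from Runx1t1 (chr4:13213570-13213769), peak 4180 lay 685 kb from Pou3f2 (chr4:23100644-23100843) and peak 1379 lay 796 kb from Sel1l (chr12:93883557-93883756). Peak 486 lay 520 kb from Cited2 (chr10:16922940-16923139), peak 58 lay 577 kb from Gm9915 (chr1:41709162-41709361) and peak 4332 lay 483 kb from Mpdz (chr4:81571604-81571803). Peak 547 was 1810 kb from its nearest coding TSS, that of Grik2 (chr10:47698880-47699079).
peak 5813: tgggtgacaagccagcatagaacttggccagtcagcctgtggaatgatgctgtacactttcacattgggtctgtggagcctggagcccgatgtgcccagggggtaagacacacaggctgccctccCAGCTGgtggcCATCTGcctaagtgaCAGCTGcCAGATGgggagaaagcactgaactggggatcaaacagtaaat
peak 4151: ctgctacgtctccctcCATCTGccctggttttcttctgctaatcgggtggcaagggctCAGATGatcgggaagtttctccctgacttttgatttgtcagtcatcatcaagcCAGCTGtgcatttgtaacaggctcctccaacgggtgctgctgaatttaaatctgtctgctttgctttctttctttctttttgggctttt
peak 4180: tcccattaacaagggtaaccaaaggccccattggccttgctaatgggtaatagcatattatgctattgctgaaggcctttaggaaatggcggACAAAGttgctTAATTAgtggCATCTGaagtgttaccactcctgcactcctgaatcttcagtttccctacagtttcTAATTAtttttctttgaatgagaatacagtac
peak 1379: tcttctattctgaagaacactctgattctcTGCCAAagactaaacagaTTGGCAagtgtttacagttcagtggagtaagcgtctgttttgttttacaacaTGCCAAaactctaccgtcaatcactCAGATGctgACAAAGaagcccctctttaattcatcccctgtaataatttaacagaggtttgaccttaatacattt
peak 486: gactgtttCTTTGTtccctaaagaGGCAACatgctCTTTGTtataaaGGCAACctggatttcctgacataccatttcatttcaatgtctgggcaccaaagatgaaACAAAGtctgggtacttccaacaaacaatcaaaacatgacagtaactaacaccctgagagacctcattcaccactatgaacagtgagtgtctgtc
peak 58: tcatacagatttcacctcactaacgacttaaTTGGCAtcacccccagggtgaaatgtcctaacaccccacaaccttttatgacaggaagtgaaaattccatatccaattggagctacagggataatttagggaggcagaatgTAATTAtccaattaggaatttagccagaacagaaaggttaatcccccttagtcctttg
peak 4332: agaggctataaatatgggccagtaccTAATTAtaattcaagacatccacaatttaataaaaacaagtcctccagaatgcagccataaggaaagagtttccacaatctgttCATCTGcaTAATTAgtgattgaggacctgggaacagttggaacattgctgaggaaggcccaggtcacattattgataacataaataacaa
peak 547: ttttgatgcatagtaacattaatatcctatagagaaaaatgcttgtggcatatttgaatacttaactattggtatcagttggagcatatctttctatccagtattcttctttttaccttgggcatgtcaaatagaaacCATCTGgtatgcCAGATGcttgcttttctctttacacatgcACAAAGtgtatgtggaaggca

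Peak 5813 held 2 copies each of CAGCTG and CATCTG, with all 4 E-boxes within one short run. Peak 1379 held 3 Nfi arms, peak 4180 paired TAATTA with an E-box and a Sox word, and peak 4332 likewise held 2 copies of TAATTA around an E-box. Peak 486 held 3 Sox words and 2 Rfx arms. A match to such letters is a description of the sequence and does not show that a factor was bound.

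Desert territory, the assembled sequence that meets the same rule of position, covered 305 Mb, or 11.9% of the genome. It held 1.79 p300 peaks per Mb (exact Poisson 95% interval 1.64 to 1.94). Other intergenic sequence held more, with 2.71 peaks per Mb (2.56 to 2.86) at 100 to 400 kb from a coding TSS and 2.46 (2.35 to 2.58) closer than 100 kb, and sequence inside genes held 2.87 (2.77 to 2.97). The interval of desert territory lay below those of the other classes. The authors had removed peaks at exons and within 2.5 kb of a TSS, and the part of this step in the difference was not tested. Judged by sampled words of 36 bases that were found a single time in the genome, 82.9% of desert territory could be mapped uniquely, against 82.5%, 80.7% and 89.8% in the other classes in the same order. Per Mb of unique sequence the densities were 2.16 in deserts and 3.28, 3.05 and 3.20 elsewhere. Peaks lie in groups, so these intervals, which take each peak as independent, are narrower than the true error.

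Within the deserts, density fell with distance. It was 2.37 per Mb (2.03 to 2.76) at 400 to 500 kb, 1.82 (1.58 to 2.09) at 500 to 750 kb, 1.53 (1.23 to 1.89) at 750 to 1000 kb, 1.55 (1.22 to 1.95) at 1000 to 1500 kb and 0.773 (0.423 to 1.30) beyond 1500 kb. The first interval lay above the last 3, and the 3 bins in the middle overlapped one another. The median member was 604 kb from a coding TSS and 89 members (16.3%) were more than 1 Mb from one. The farthest lay on chromosome 18 between Celf4, which encodes an RNA-binding protein of neurons, and Pik3c3, a lipid kinase of vesicle traffic, at 2196 kb from the TSS of Pik3c3. At 693 bp it was a narrow peak, and its GC content was 58.2%.

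**Figure D1:**
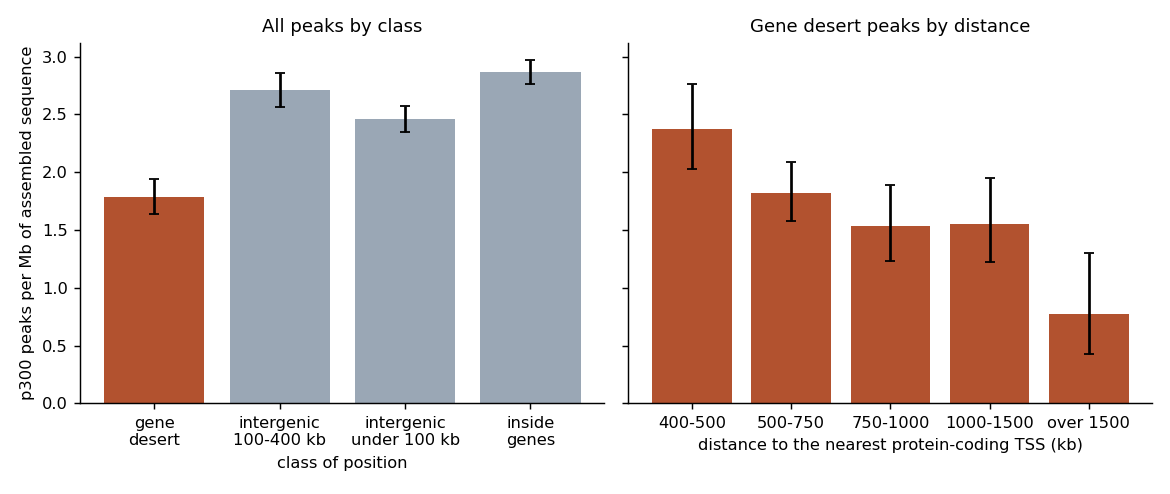
p300 peaks per Mb of assembled sequence in the 4 classes of position (left) and in gene desert territory by distance to the nearest protein-coding TSS in kb (right); bars are densities and error bars exact Poisson 95% intervals. Deserts held 1.79 peaks per Mb, under each other class, and density within deserts went from 2.37 at 400 to 500 kb to 0.773 beyond 1500 kb.

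The peaks were unevenly shared among deserts. The genome had 470 deserts, taken as stretches between neighbouring coding gene bodies with some territory in them. In 275 of these, with 116 Mb or 38.1% of the territory, there was no member. Of the 195 deserts with members, 83 had 1, 37 had 2 and 75 had 3 or more. The 36 deserts with 5 or more held 256 members (47.0%) and the 10 leading ones held 107 (19.6%). Deserts with members were larger, with a median territory of 0.715 Mb against 0.246 Mb in those without.

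The desert with most members, 16, lay on chromosome 18 between Zfp608, a zinc finger gene, and Gramd3, a gene of a GRAM domain protein. They began 435 kb from the Zfp608 TSS and ended 456 kb from that of Gramd3, and 11 of the 16 were nearer to Zfp608. Their widths ran from 858 to 4444 bp. Beyond the other side of Zfp608, the desert next to Gm5507 held a further 6 members in 0.175 Mb of territory, 34.2 per Mb (12.6 to 74.5). The 16 members in 0.609 Mb gave 26.3 per Mb (15.0 to 42.6). The deserts were chosen for their members, so these densities are a description.

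The desert between Gm1840, a gene known only by a model name, and Efnb2 on chromosome 8 came next with 15. Efnb2 encodes ephrin-B2, a membrane ligand of Eph receptors in cell repulsion and axon guidance. These members were spread over 2130 kb at a median spacing of 106 kb, and the one deepest in the desert lay 1469 kb from a coding TSS. All 15 were between 660 and 1562 bp wide. With 2.17 Mb of territory the density was 6.90 per Mb (3.86 to 11.4).

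On chromosome 4, 12 members lay between Fam92a and Runx1t1, which encodes a transcriptional corepressor, and 9 of them were nearer to Runx1t1. The group of 5 nearest to Runx1t1 spanned 86.9 kb and ended 416 kb from its TSS. On the same chromosome, 10 members lay between Pou3f2 and Mms22l. Pou3f2 encodes Brn2, a POU factor of cortical neurons of the upper layers, and Mms22l a protein of replication fork repair. The members were split 5 and 5 by the nearer gene, and the one deepest in the desert was 1002 kb from its nearest TSS, that of Pou3f2.

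Igfbp7, a secreted binding protein of insulin-like growth factors, and Lphn3, an adhesion receptor, bordered 10 members in a large territory of 3.10 Mb. These stood far apart, with a median spacing of 196 kb, and Lphn3 was bordered on its other side by a desert with 7 more, up to Tecrl. Nr2f1 and Arrdc3 bordered 9. Nr2f1 encodes COUP-TFI, a nuclear receptor that patterns cortical areas, and its nearest member was 603 kb away from it. Nmbr, a neuropeptide receptor, and Cited2, a regulator that itself binds p300, also bordered 9, and so did Sel1l with Gm9726 and Celf4 with Pik3c3. Odz2, a teneurin adhesion protein, and Mat2b bordered 8 members, and Tmem182 and Gm9915 bordered 8.

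In 3 deserts of the 12 leading ones, a flank had only a model or clone name. Looking past these after the values were seen, the first gene with a full name beyond Gm9915 was Pou3f3, a POU factor close to Pou3f2, beyond Gm9726 it was Flrt2, a membrane guidance protein, and beyond Gm1840 it was Slc10a2, a bile acid transporter.

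The densest desert among those with 3 or more members was that of Mpdz, a scaffold protein, and Nfib, a nuclear factor I gene needed for cortical development. Its 7 members lay in 0.191 Mb of territory, 36.6 per Mb (14.7 to 75.5). They formed one group of 113 kb in which no gap between neighbours exceeded 50 kb, and it was the largest such group in any desert. From the Mpdz side to the Nfib side their widths were 622, 975, 935, 1509, 579, 969 and 812 bp, and their GC contents were 36.8, 42.2, 50.4, 45.4, 39.8, 52.6 and 46%. Neither measure rose or fell steadily along the group. Of the 7, 5 were nearer to the TSS of Mpdz and 2 to that of Nfib, at 472 to 520 kb from the nearer of them.

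The third in density was a territory of 0.120 Mb between Cyp7b1, an oxysterol hydroxylase, and Armc1, with 4 members (33.4 per Mb, 9.10 to 85.5). Primers of the study's reporter constructs were searched around the members, and those of one construct, elt7, framed a member at chr3:18643263-18644821. No other primer pair searched did so. The peak framed by elt7 was 1545 bp wide and 419 kb from the TSS of Armc1, with a GC content of 34.6%. In the study's transgenic mouse embryos elt7 was active in the outermost cells of the neocortex. The authors named Bhlhb5, not a flank of this desert, as its likely target gene.

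**Figure D2:**
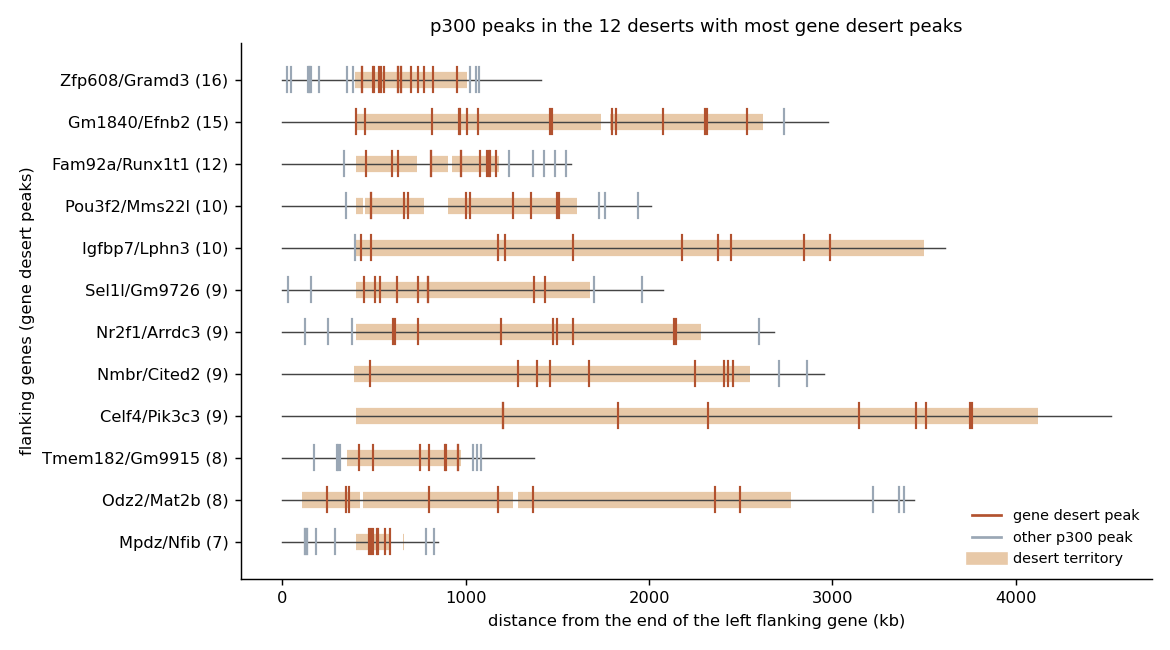
The 12 deserts with most gene desert peaks, each drawn from the end of its left flanking gene (0 kb) to the start of its right one, with desert territory shaded, gene desert peaks as dark ticks and other p300 peaks as grey ticks; numbers in brackets count gene desert peaks. The 7 of Mpdz/Nfib stood in one group, whereas those of Igfbp7/Lphn3 and Celf4/Pik3c3 were spread over 2555 and 2562 kb.

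The 3 largest territories without a member were those of Cntnap5b and Cdh20 with 3.88 Mb, of Olfm4 and Pcdh17 with 3.64 Mb, and of Stim2 and Pcdh7 with 2.92 Mb. Cntnap5b encodes a contactin-associated protein, Cdh20 a cadherin, and Pcdh17 and Pcdh7 are protocadherins. Over the whole stretch between the flanking genes, which is more than the territory, unique sequence made up 80.05, 85.1 and 81.9% of the sampled positions. For all territory, without the sequence nearer to genes, the value was 82.9%. In the same whole stretches, p300 peaks that did not meet the rule numbered 1, 4 and 0.

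Deserts were then sorted by their flanking genes, using lists of gene families matched by symbol. The list of transcription factors held 3.94% of all protein-coding genes. Among the 368 genes that flanked deserts with members, 35 were on it (9.51%, 6.71 to 12.98), and among the 517 that flanked deserts without members 30 were (5.80%, 3.95 to 8.18). These intervals overlapped. A transcription factor stood at a flank of 36 of the 195 deserts with members. Names alone decide what is on the list, so it holds the corepressor Runx1t1 and genes called Zfp and a number. In order of their members the flanking ones began with Zfp608, Runx1t1, Pou3f2, Nr2f1, Nfib, Myc, Zeb2 and Tox3. Zfp516 and Tshz1 (one desert), Nr4a2, Ets1, Gata3, Sox2, Sox11, Sall3 and Dach1 were among those that followed in the deserts with 3 or more.

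Since larger deserts can hold more peaks, density is the closer measure. Territory with a listed transcription factor at a flank held 127 members in 28.1 Mb, 4.52 per Mb (3.77 to 5.38), and the rest held 418 in 277 Mb, 1.51 per Mb (1.37 to 1.66). The difference was also there at equal distance from a coding TSS, with 5.15 (3.84 to 6.77) against 1.92 (1.58 to 2.30) at 400 to 500 kb and 5.05 (3.83 to 6.52) against 1.44 (1.22 to 1.70) at 500 to 750 kb. At 750 to 1000 kb the values were 2.36 (1.02 to 4.65) from 8 members and 1.48 (1.17 to 1.84), and these intervals overlapped. Beyond 1000 kb they were 3.04 (1.46 to 5.59) from 10 members and 1.25 (0.991 to 1.56), which also overlapped. Leaving out the deserts of Zfp608 gave 3.85 (3.15 to 4.66) over all distances. All these intervals take each peak as independent, although members lie in groups, as beside Zfp608 and Runx1t1. They are therefore narrower than the true error, and the lists were chosen with earlier results of these data known. Where one flank was a listed factor and the other was not, 63 of 121 members (52.1%, 42.8 to 61.2) were nearer to the factor, and 49.7% of the territory was, a value inside that interval.

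**Figure D3:**
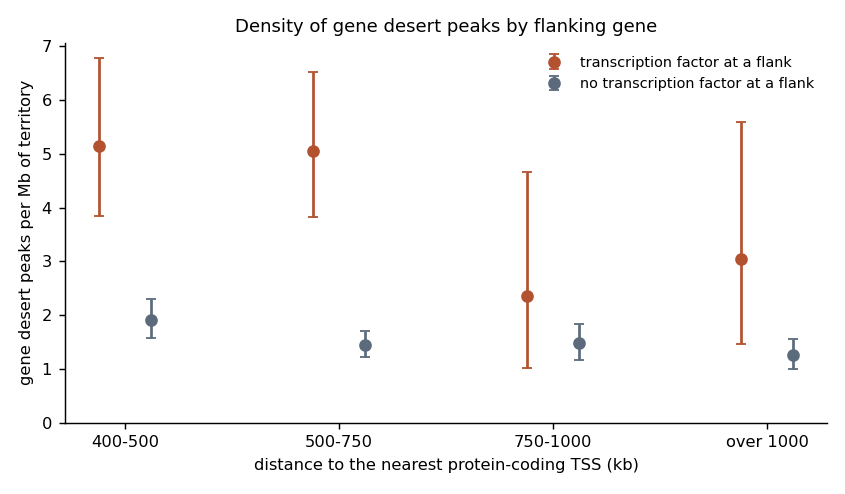
Gene desert peaks per Mb of territory (points, with exact Poisson 95% intervals) by distance to the nearest protein-coding TSS in kb, for deserts with and without a listed transcription factor at a flank. At 400 to 500 and 500 to 750 kb the intervals are apart (5.15 against 1.92 and 5.05 against 1.44), and beyond 750 kb they overlap. The intervals take each peak as independent, although peaks lie in groups, and are narrower than the true error.

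Genes of adhesion and axon guidance were 0.979% of coding genes and 44 of the 368 genes flanking deserts with members (11.96%, 8.82 to 15.7), against 34 of 517 (6.58%, 4.60 to 9.07) for deserts without. The intervals of these shares overlapped. Territory beside these genes held 1.61 members per Mb (1.37 to 1.89) and other territory 1.87 (1.69 to 2.07), and these intervals overlapped. At 400 to 500 kb from a coding TSS the values were 2.03 (1.34 to 2.95) and 2.45 (2.06 to 2.89), and at 500 to 750 kb they were 1.58 (1.15 to 2.13) and 1.90 (1.61 to 2.22). At 750 to 1000 kb they were 2.04 (1.49 to 2.73) and 1.21 (0.879 to 1.64), with the higher value beside these genes, and beyond 1000 kb they were 1.21 (0.871 to 1.63) and 1.49 (1.09 to 1.98). The intervals overlapped in each of the 4 bins. Such deserts were large, with 97.9 Mb of territory in 82 deserts. Receptor and channel genes, 1.19% of coding genes, were 11 of the 368 (2.99%, 1.501 to 5.29) and 24 of the 517 (4.64%, 2.997 to 6.83). Genes of secreted signals and their receptors, 0.711% of coding genes, were 2 (0.543%, 0.0659 to 1.95) and 9 (1.74%, 0.799 to 3.28). Chemosensory receptors, a list taken as a contrast that held 6.68% of coding genes, were 0 of 368, which allows up to 0.997%, and 1 of 517. All these lists count families by name, and a gene may border 2 deserts.

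In width the gene desert peaks were close to the other peaks. Their median width was 1013 bp (exact 95% interval of the median 983 to 1035), against 1025, 1013 and 1019 bp in the other classes, and 24 (4.40%) were over 2 kb wide, against 4.30% of all peaks. The widest of the whole list, 5243 bp, was a member. It lay on chromosome 12 between 3110039M20Rik and Prkd1, a protein kinase, 455 kb from the TSS of Prkd1, with neighbours of 2357 and 4100 bp in the same desert. The narrowest member, 475 bp, lay between 4931429L15Rik and Cadm1, a cell adhesion gene, and the narrowest of all peaks was 367 bp wide.

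They were more isolated than other peaks. Another p300 peak lay within 50 kb of 201 members (36.9%, 32.8 to 41.1), whereas this was so of 50.1% of all peaks and of 48.5 (45.8 to 51.3), 49.5 (47.1 to 51.8) and 53.5% (51.7 to 55.3) in the other classes. The median distance to the nearest peak was 88.0 kb (74.98 to 103) against 53.4, 51.2 and 42.1 kb. This share also fell within deserts, from 43.7% at 400 to 500 kb from a TSS to 14.3% of the 14 members beyond 1500 kb. Among the members alone, 195 stood in 86 groups with gaps under 50 kb, of which 74 were pairs, and 350 stood by themselves. After that of Nfib the largest groups had 5 members each, one beside Zfp608 over 62.8 kb and one beside Runx1t1 over 86.9 kb. At the other end, 59 members (10.8%) had no other p300 peak within 500 kb, and the most isolated, on chromosome X, had none within 4584 kb. The share of all peaks without a neighbour within 500 kb was not counted, so these 59 only describe the members.

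Chromosome 18 had the highest density of members, with 49 in 12.6 Mb (3.88 per Mb, 2.87 to 5.13), of which the deserts beside Zfp608 gave 22. Chromosome X had the lowest, with 3 in 18.5 Mb (0.162 per Mb, 0.0335 to 0.474). Its interval lay below that of every autosome but chromosomes 9 and 19, where only 6 and 4 members were counted. Of all 6629 peaks, the X held 76.

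In base composition the members lay between other peaks and desert territory as a whole. The median GC content of the central 500 bp was 40% (39.6 to 40.6), against 44.6% (44.0 to 45.0), 49.0% (48.6 to 49.4) and 46.4% (46 to 46.8) in the other classes. The 609001 windows of 500 bp that tile the desert territory had a median of 37.6%. These windows include deserts without members and sequence that is not unique. The part of either in a difference between members and windows was not tested. Median GC also went down within deserts, from 42% at 400 to 500 kb to 36% beyond 1500 kb. The range was from 25.4%, in a peak near Cdh6, to 67.6%, in one near Gm5908.

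Motifs were counted beside all peaks and beside these windows. Of the members, 42.6% (38.4 to 46.8) held TAATTA, against 31.3% of all peaks and 22.4% of the windows of territory. CAGCTG, which reads the same on both strands, was in 34.7% (30.7 to 38.8), against 39.7% and 11.8%, and CATCTG in 55.2% (50.9 to 59.5), against 57.4% and 31.7%. The arm TTGGCA was in 44.8% (40.5 to 49.1), against 42.3% and 22.2%, and GTTGCC in 17.98% (14.8 to 21.5), against 19.9% and 10.8%; the 2 words can share bases. The octamer ATGCAAAT of POU factors was in 9.72% (7.37 to 12.5), against 7.60% and 6.01%. Thus each of these words was more frequent in members than in the windows of all territory, with the interval above the windows' value. The Sox word ACAAAG was not, at 42.8% (38.6 to 47.0) against 40.8% of peaks and 41.0% of windows. AP-1 (TGACTCA), at 7.71% (5.61 to 10.3) against 8.28% and 6.55%, could not be told from the windows either. The T-box word AGGTGTGA was in 2.94% (1.69 to 4.72), against 3.03% and 1.42%. The full Nfi site, TTGGC and GCCAA 5 bases apart, was in 1 member (0.183%), against 0.272% of peaks and 0.0212% of windows.

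**Figure D4:**
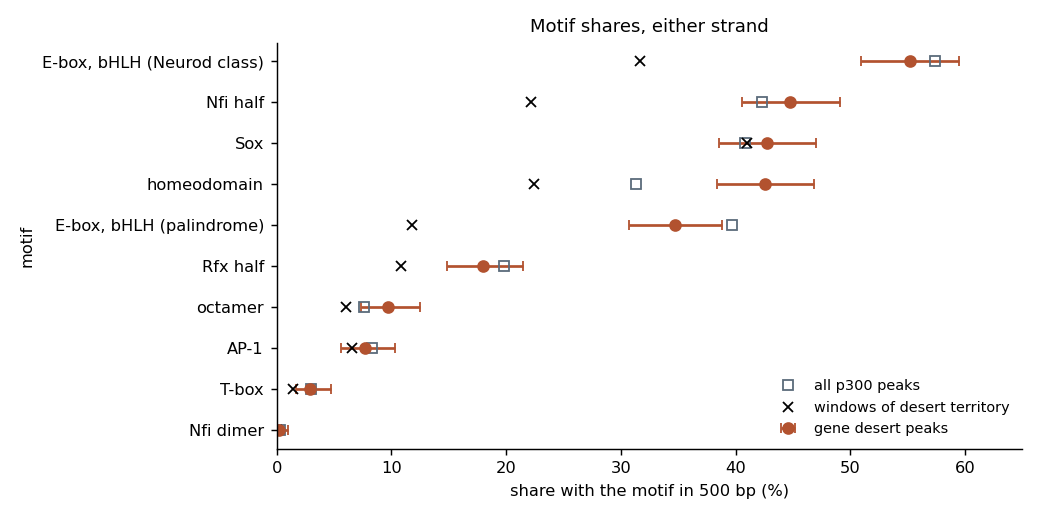
Share of sequences of 500 bp with each motif on either strand, in percent, for gene desert peaks (filled points with exact 95% intervals), all p300 peaks (squares) and windows of desert territory (crosses). Most words lie well to the right of the windows, the Sox word (42.8 against 41.0%) does not, and TAATTA (42.6%) lies to the right of all peaks (31.3%).

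Among sequences of like GC content, TAATTA was about as frequent in the members as in other peaks, and more frequent than in the windows. Under 38% GC, TAATTA was in 56.8% (49.2 to 64.2) of the members and in 55.8, 57.4 and 55.8% of the peaks of the other classes, but in 30.2% of the windows. The same held in the higher bins, up to 21.8% (13.7 to 32.0) of the members against 7.05% of the windows from 46% GC. CAGCTG rose with GC in the members from 19.9% (14.3 to 26.6) to 62.1% (51.0 to 72.3), and in the windows from 7.61% to 25.3%. Under 38% GC it was in 21.6, 18.5 and 28.6% of the peaks of the other classes, and there and in the 2 middle bins the intervals of the classes overlapped that of the members. In the top bin, with 87 members, it was in 41.8% (37.6 to 46.2) of the peaks at 100 to 400 kb and in 47.8% (44.9 to 50.7) of those under 100 kb, with intervals below that of the members. Inside genes it was in 49.2% (46.7 to 51.7), and this interval overlapped that of the members. CATCTG was in 51.1 to 58.6% of the members and in 27.2 to 39.1% of the windows over the 4 bins. For the Sox word the members' interval held the windows' value in the lower 3 bins, and in the top bin it was in 42.5% (32.0 to 53.6) of the members against 31.5% of the windows. For the T-box word the members' interval held the windows' value in all 4 bins, and for the octamer it did so in 3 of the 4. For GTTGCC the members' interval lay above the windows' value in the bins under 42% GC. It held that value at 42 to 46% GC (10.8 to 25.9 against 13.1%) and from 46% GC (15.6 to 34.5 against 16.0%).

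**Figure D5:**
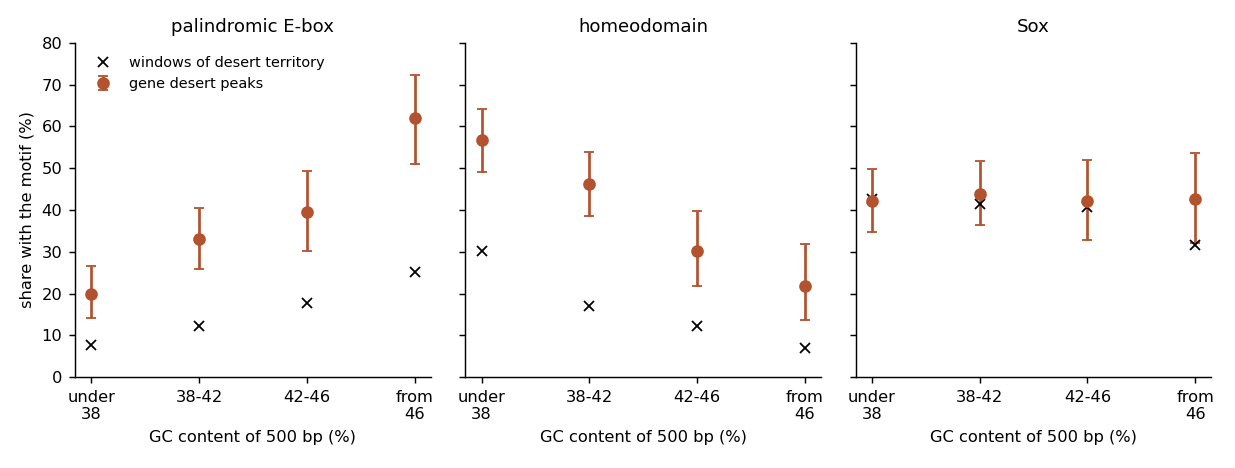
Share with 3 motifs, in percent, within bins of GC content of the 500 bp, for gene desert peaks (points with exact 95% intervals) and windows of desert territory (crosses). The palindromic E-box rose from 19.9 to 62.1% in the peaks and stayed above the windows in each bin, TAATTA fell from 56.8 to 21.8% and also stayed above, and the Sox word remained near 42%.

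Most members had unique sequence. In 3 of the 545 (0.550%), under 90% of the 36-base words occurred once in the genome, against 2.47% of all peaks, and the least unique, near Igfbp7, had 77.2%. Aligning the members to all peaks gave 27 (4.95%) with at least 100 bp similar to some other peak, against 10.4% of all peaks. These made 136 pairs, of which 8 were of 2 members. The largest family, linked through shared pairs, held 57 peaks, and in it peak 3541 was similar to 53 others and peak 5078 to 23. The highest-scoring pair of members joined peak 4785 in the Igfbp7 desert with peak 2920 in that of Zfp608, with 119 bp at 95.8% identity. The same stretch of peak 4785 was also similar to a peak inside Kalrn (125 bp, 97.6%) and to peak 683, another member (106 bp, 87.7%). The aligned bases are printed to show what these peaks shared.
peak 4785: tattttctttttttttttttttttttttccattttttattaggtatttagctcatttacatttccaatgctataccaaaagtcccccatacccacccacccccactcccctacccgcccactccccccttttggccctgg
peak 683: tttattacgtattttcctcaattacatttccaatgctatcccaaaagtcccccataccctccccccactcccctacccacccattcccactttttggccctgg
The stretch of peak 4785 was chr5:79052247-79052386 and that of peak 683 chr10:104124183-104124285, both on the plus strand. No searched motif lay in either, and the repeat families of the genome were not analysed here.

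By orientation of the flanking genes there were 1.90 members per Mb between convergent genes, 1.87 between divergent ones and 1.68 between genes on the same strand.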

How the data were processed

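Reads of 36 bp were placed on mm9 by the authors with ELAND, and those with 1 location and at most 2 mismatches were kept (by the study's methods 17460074 for p300 and 15669334 for input). MACS (1.4 per the submitters' processing notes) called peaks against input, and the authors then dropped peaks at exons, within 2.5 kb of a TSS or in doubt over repeated sequence. The deposited positions are the start and end of each of 6629 peaks, with no score, signal or count, so the depth behind a single peak is unknown. The tissue was 1 pool from embryos, so no test between samples was possible and none was run.

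Positions were computed on NCBIM37 (mm9) with GENCODE vM1 (22367 protein-coding of 37273 genes), taking as TSS that of each gene's longest coding transcript, by coding length. Assembly gaps were left out of all lengths. Motifs were searched in the central 500 bp. Unique sequence was estimated from 36-base words sampled every 5 kb across the genome and every 10 bp within peaks. Similar peaks were found with blastn 2.17.0 (E-value 1e-05). Python 3.11.15, numpy 2.4.6, scipy 1.17.1, numba 0.67.0, pysam 0.24.0 and matplotlib 3.10.9 were used. Intervals are exact (Clopper-Pearson, Poisson, order statistics) at 95%. The rule, the counting of 36-base words and the intervals were tested on simulated data, and the motif search was not. The members and lists were chosen with earlier results of these data known. Named genes flank the 12 deserts with most members, the 5 densest with 3 or more, the 3 largest territories with no member, the farthest, widest and narrowest member and a cloned element; genes in a list are examples in order of members. Alternatives were other limits, TSS sets, gene sets, peak sets and windows. Some flanking genes are not reported here.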

Additional observations from a re-analysis of the deposited data

How the results depend on the processing

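Of 89 alternative values, 58 stayed within the interval of the reported value (counts within 1.5 times) and 31 did not. With a limit of 300 kb the share of peaks was 11.7%, and the 10 leading deserts held 15.9% of the members. With a limit of 500 kb these were 5.70% and 23.3%, and the density was 1.61 per Mb. Without model or clone genes the share was 10.3%. Counting distance from genes of any type left 139 peaks (2.10%), and keeping only peaks of median width or more left 267. Density was 2.16 per Mb of unique sequence. Joining peaks under 5 kb apart gave 29.4% with a neighbour within 50 kb. Motif shares follow the length searched. In the central 200 bp and in whole peaks they were 36.9 and 74.1% for CATCTG, 21.1 and 48.4% for CAGCTG, 22.0 and 62.0% for TAATTA, 27.3 and 62.9% for TTGGCA, 20.6 and 69.2% for ACAAAG, 4.77 and 17.2% for ATGCAAAT, 7.52 and 30.5% for GTTGCC, 1.47 and 5.14% for AGGTGTGA, and 2.94 and 16.9% for TGACTCA. Median GC was 41.5% in the central 200 bp and 38.8% in whole peaks. Chosen after seeing the data, autosomes alone gave 1.89 members per Mb of territory, deserts flanked by transcription factors gave 3.85 without those of Zfp608 and 4.01 with Zfp genes not counted, and the bins of GC content and of distance were added. The list has no score, so a stricter threshold could be set by width only, and with 1 library a weak peak cannot be told from a chance call. No paired analysis was possible because there was 1 library per group.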
